A study of Caenorhabditis elegans with 8 samples.

Results

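RNA sequencing of whole adult Caenorhabditis elegans was used to follow 233 transcribed pseudogenes. They are every gene that the deposited table types as a pseudogene and that collected at least 80 read counts over all 8 samples. The table lists 20871 genes, of which 703 are pseudogenes, so 33.1% of the pseudogenes reached that sum, against 70.2% of the protein-coding genes. The 4 mtch-1(RNAi) samples came from worms fed HT115 Escherichia coli making double-stranded RNA against mtch-1. The 4 EV samples came from worms fed HT115 with the empty L4440 vector. In both groups IPTG at 5 mM, given for 3 h at 37 °C, had induced the bacteria. Both groups started as eggs laid on these bacteria, lived at 20 °C on plates with 1 mM IPTG, and were frozen on day 3 of adulthood, about 200 adults per sample. The strain is not given in the sources used here. Nothing in the labels ties the replicates to separate cultures, so each p-value speaks of the spread between these particular samples, which may be technical.

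Pseudogenes are copies or relics of genes that have lost an intact reading frame, often through an early stop codon, a frameshift or the loss of an end of the gene. In C. elegans many lie in fast-evolving families, such as chemoreceptors and F-box genes, on the arms of the chromosomes. Their transcripts can be degraded by nonsense-mediated decay, which acts on messages with early stop codons, or silenced through small RNAs bound by Argonaute proteins.

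Each library held 18710833 to 23608608 counts over all genes. The targeted gene, mtch-1 (a mitochondrial carrier homologue), averaged 47.2 ± 9.92 CPM (counts per 1000000) in mtch-1(RNAi) and 279 ± 11.9 CPM in EV (SD, n = 4 each). Its log2 fold change was -2.56 ± 0.12 (SE), with an edgeR adjusted p of 8.62e-08. Here CPM uses library sizes after TMM scaling, every log2 fold change is mtch-1(RNAi) over EV, and a gene is said to have risen or fallen when its edgeR quasi-likelihood p, adjusted over all 13252 genes tested, was under 0.05. In RNA from whole worms, fewer cells of a type and less RNA per cell cannot be told apart.

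The pseudogene label was checked against the Ensembl 115 annotation of the same build, WBcel235. Of the 233 genes, 214 are pseudogenes there too, 14 are protein-coding, 1 is an ncRNA, 1 is a lincRNA and 3 had no match. The most abundant gene of the set is one of the 14. It is rpl-41.2 (F54D7.7, chromosome I, 4790292 to 4790642, plus strand), annotated as coding for ribosomal protein L41. Its neighbour rpl-41.1 (F54D7.6) is the second of the set by CPM per kilobase of gene length, though not by CPM. The pair held 39.2% of all counts of the set, and the 10 genes with the most counts held 67.7%. Among genes that changed, 30 of the 31 that rose and all 4 that fell are still pseudogenes in Ensembl 115.

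Most of these genes were transcribed at low levels. The median level per length was 2.96 CPM per kilobase (quartiles 1.24 and 6.77), against 12.1 CPM per kilobase (quartiles 2.20 and 50.8) over the 12819 protein-coding genes that also reached 80 counts. The range ran from 0.119 to 3912 CPM per kilobase. By CPM the median was 2.42, with 56 genes under 1 CPM and 21 at 20 CPM or more. The genes were also short, with a median length of 990 bases (72 to 6473), against 1344 bases for those coding genes. Most kept an intron-exon structure: the median was 4 exon blocks, and 22 had a single block. None was at 0 in all samples of a group, and 1 was at 0 in a single sample.

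**Figure D1:**
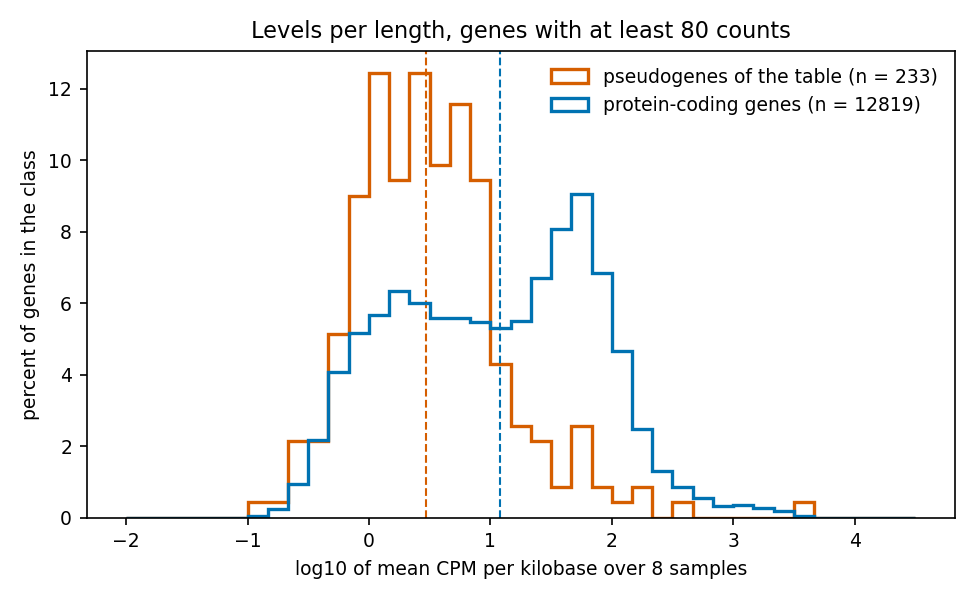
Histogram of levels per length, with log10 of the mean CPM per kilobase on the x axis and the percent of genes of each class on the y axis, for the 233 pseudogenes and the 12819 protein-coding genes with at least 80 counts. Dashed lines mark the medians, 2.96 and 12.1 CPM per kilobase, and the pseudogenes lack the second, higher hump of the coding genes.

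At the top of the range, rpl-41.2 had 1259, 1392, 1189.6 and 1066 CPM in mtch-1(RNAi), against 1048, 1178, 933 and 1105 CPM in EV. Its partner rpl-41.1 had 87.5, 118, 104 and 98.6 CPM in mtch-1(RNAi), against 126, 134, 103 and 111 CPM in EV. Both pairs of groups overlapped, and the fitted changes had opposite signs, 0.20 ± 0.09 for rpl-41.2 and -0.22 ± 0.09 for rpl-41.1. Neither passed the edgeR test (adjusted p = 0.108 and 0.110), and both did with the replicate number as a block (0.0106 and 0.0114). As genes for the same protein 700 bases apart they can share reads, and how the authors counted reads that match more than one place is not given in the sources used here.

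Next in level per length were genes that are still annotated as pseudogenes. F07H5.5 (chromosome II) had 348, 329, 297 and 361 CPM in mtch-1(RNAi), against 316, 348, 307 and 324 CPM in EV, a log2 fold change of 0.04 ± 0.06 with overlapping groups. ZC513.7 (chromosome V, 8039469 to 8040387, minus strand) had 119, 120, 110 and 121 CPM in mtch-1(RNAi), against 94.2, 95.7, 88.7 and 88.3 CPM in EV. Its groups did not overlap, and it rose by 0.36 ± 0.05 on the log2 scale (edgeR adjusted p = 0.000263). ZC513.7 shares 209 exon bases, on the opposite strand, with algn-12 (ZC513.5), whose name marks a homologue of a glycosylation enzyme and whose log2 fold change was -0.06 ± 0.04 (edgeR adjusted p = 0.372). Whether the counting used strand is not given in the sources used here, so reads from such a stretch cannot be told apart.

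Of the other abundant genes, 2 rose, 1 fell and 3 did not pass the test. F22D6.14 had 20.2, 25.6, 22.3 and 24.5 CPM in mtch-1(RNAi), against 17.8, 19.4, 16.6 and 14.2 CPM in EV, and rose by 0.44 ± 0.11 (edgeR adjusted p = 0.0119). It shares 29 antisense exon bases with F22D6.8, whose log2 fold change was 0.21 (edgeR adjusted p = 0.305). F45H11.8, protein-coding in Ensembl 115, had 35.2, 35.1, 35.1 and 32.8 CPM in mtch-1(RNAi), against 31.8, 31.4, 30.9 and 26.7 CPM in EV. Its groups did not overlap, yet its edgeR adjusted p was 0.0727, and 0.0311 with the replicate block. F07H5.3 and Y48G1BL.3 had log2 fold changes of 0.02 ± 0.05 and 0.05 ± 0.06 at 87.8 and 58.2 CPM per kilobase.

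**Figure D2:**
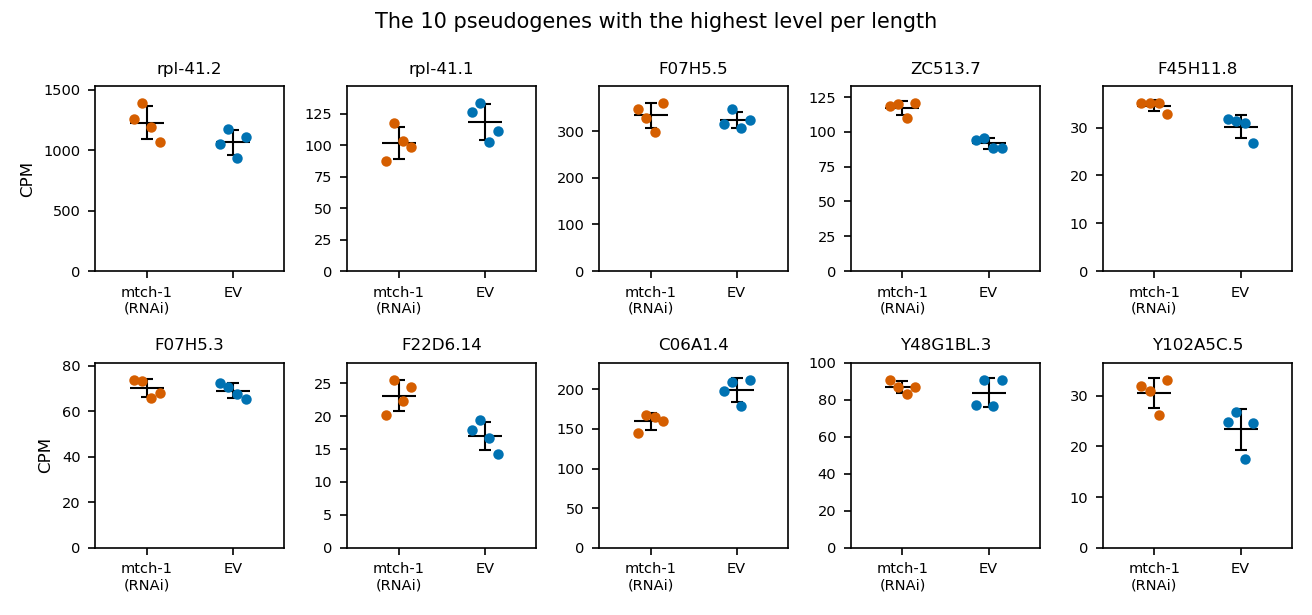
CPM in each of the 4 mtch-1(RNAi) and 4 EV samples for the 10 pseudogenes with the highest level per length, each on its own axis from 0, with the mean and SD as black bars. The groups separate in ZC513.7, F45H11.8, F22D6.14 and C06A1.4, and overlap in the other 6.

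After mtch-1 RNAi, 31 of these genes rose and 4 fell. A count was possible for 231 of them, since F22E10.4 and Y37H2B.1 had too few counts to be tested. The rises were 13.4% of the 231, beside 10% of all 13252 genes tested, and the falls were 1.73%, beside 13%. Over all genes falls outnumbered rises, with 1728 falls and 1325 rises. Of those falls, 1508 were of genes at 20 CPM or more, where 21 of the 231 pseudogenes lay. The shares above therefore set genes of unlike levels side by side. The median log2 fold change of the pseudogenes was 0.11, against 0.01 over all genes, and 141 of the 231 (61.0%) had a positive value, against 52.3% of all genes. The values were also less precise, with a median SE of 0.22 against 0.12. With the replicate number as a block, 42 rose and 10 fell. The share of all genes called in that fit is not given here, and the 10% and 13% belong to the main fit.

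The samples were also compared without a model. In 34 of the 231 (14.7%) all 4 mtch-1(RNAi) samples lay above all 4 EV samples, beside 11.7% of all genes tested. In 9 (3.90%) all 4 lay below, beside 14.2% of all genes. Neither share was compared at matched level. As a share of all counts, the set took 0.342% ± 0.0187 in mtch-1(RNAi), with samples from 0.326% to 0.365%, and 0.300% ± 0.0188 in EV, with samples from 0.279% to 0.325% (SD, n = 4 each). The groups did not overlap on these plain library totals. On the TMM-scaled library sizes that CPM uses, they did, at 0.334% ± 0.0187 (0.319% to 0.360%) in mtch-1(RNAi) and 0.308% ± 0.0230 (0.280% to 0.335%) in EV. Without the rpl-41 pair the share was 0.206% ± 0.00757 in mtch-1(RNAi) and 0.185% ± 0.00929 in EV, and the groups overlapped. Within each replicate number the mtch-1(RNAi) share was the higher one, in 4 of 4 pairs by each of these reckonings.

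**Figure D3:**
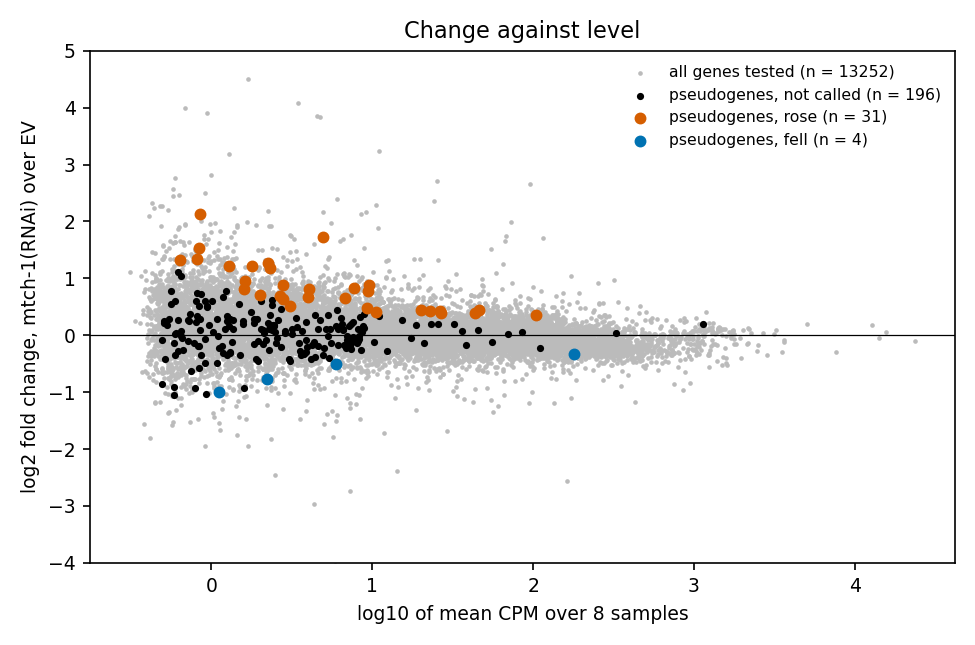
Log2 fold change of mtch-1(RNAi) over EV (y axis) against log10 of the mean CPM (x axis) for all 13252 genes tested in grey and the pseudogenes by call; 6 genes lie outside the plotted range of -4 to 5. The 31 rises run from 0.36 to 2.13 and spread over the range of levels, and the 4 falls run from -1.0 to -0.32.

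The rises ranged from 0.36 to 2.13 on the log2 scale with a median of 0.77. At least a doubling was fitted for 9 of the 31 (29.0%), against 18.3% of all genes that rose, a comparison not made at matched level. The strongest was ZK1025.1 (chromosome I, 11443452 to 11446644, plus strand), a single exon block of 3193 bases. It had 1.14, 1.20, 1.45 and 1.82 CPM in mtch-1(RNAi), against 0.149, 0.386, 0.268 and 0.443 CPM in EV, and rose by 2.13 ± 0.35 (edgeR adjusted p = 0.00107). No sample of one group reached the other. Next came AC8.1 near the left end of chromosome X (242291 to 252767, minus strand), with 9 exon blocks. Its 6.48, 7.84, 7.18 and 8.98 CPM in mtch-1(RNAi) stood against 2.08, 2.26, 2.62 and 2.21 CPM in EV, a rise of 1.73 ± 0.16 (edgeR adjusted p = 2.61e-05). That is the lowest adjusted p among the pseudogenes, from tightly grouped samples.

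Several of the other strong rises were of genes at about 1 CPM in mtch-1(RNAi). Y17D7C.4 (chromosome V) had 1.43, 1.51, 0.839 and 1.19 CPM in mtch-1(RNAi), against 0.198, 0.717, 0.214 and 0.575 CPM in EV (log2 fold change 1.53 ± 0.40, edgeR adjusted p = 0.0150). Y53F4B.6 (chromosome II) had 1.35, 1.02, 1.17 and 1.15 CPM in mtch-1(RNAi), against 0.297, 0.441, 0.375 and 0.708 CPM in EV (1.33 ± 0.31, edgeR adjusted p = 0.00868). F46C3.5 (chromosome X) had 1.05, 0.974, 0.839 and 0.812 CPM in mtch-1(RNAi), against 0.347, 0.386, 0.375 and 0.354 CPM in EV (1.32 ± 0.29, edgeR adjusted p = 0.00608). In all of these the groups were apart, by the least in Y17D7C.4, where the EV samples themselves split into a higher and a lower pair. C08F11.6 (chromosome IV) had 1.35, 2.17, 2.38 and 1.34 CPM in mtch-1(RNAi), against 0.644, 0.993, 0.375 and 1.06 CPM in EV, and rose by 1.22 ± 0.33 (edgeR adjusted p = 0.0204). Its adjusted p went over the threshold, to at most 0.0565, without mtch-1(RNAi) replicate 2 or 3 or EV replicate 1.

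A few rising genes lie beside genes of known families or carry a domain listed in the deposited table. F57G4.4 (chromosome V, 17637982 to 17640042, minus strand) had 3.20, 3.19, 4.01 and 2.39 CPM in mtch-1(RNAi), against 0.941, 1.32, 1.44 and 1.59 CPM in EV, and rose by 1.26 ± 0.23 (edgeR adjusted p = 0.00209). It stands 630 bases from fbxa-192, an F-box gene on the same strand that rose by 0.79 (edgeR adjusted p = 0.000918). F-box proteins bring targets to a ubiquitin ligase. Also on chromosome V, Y51A2A.9 had 2.65, 2.26, 2.47 and 2.63 CPM in mtch-1(RNAi), against 0.842, 0.993, 1.18 and 1.28 CPM in EV, with a rise of 1.21 ± 0.21 (edgeR adjusted p = 0.00158). All mtch-1(RNAi) samples of both genes lay above all EV samples.

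R03D7.3 (chromosome II, 10935726 to 10942198, minus strand) is the longest gene of the set, with 6473 bases in 1 exon block and a reverse transcriptase domain, the enzyme that retroelements use to copy themselves. It had 3.62, 3.59, 2.19 and 3.53 CPM in mtch-1(RNAi), against 1.58, 1.65, 0.856 and 1.59 CPM in EV, and rose by 1.18 ± 0.25 (edgeR adjusted p = 0.00495). Replicate 3 was the low sample of each group, and the groups did not overlap. The other gene with that domain, F02E9.8, had a log2 fold change of -0.86 at 0.493 CPM (edgeR adjusted p = 0.313). Y46G5A.6, with a DEAD-box helicase domain, had 1.89, 2.66, 1.87 and 2.20 CPM in mtch-1(RNAi), against 1.09, 0.717, 1.44 and 1.15 CPM in EV, and rose by 0.96 ± 0.25 (edgeR adjusted p = 0.0146).

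The remaining 21 rises lay between 0.36 and 0.89. T08D2.3, with a CCHC zinc finger as found in retroviral nucleocapsids and some RNA-binding proteins, averaged 12.4 ± 0.972 CPM in mtch-1(RNAi) and 6.74 ± 1.08 CPM in EV (SD, n = 4 each). B0047.5, with a BTB domain (a protein interaction domain of ubiquitin ligase adaptors), averaged 11.9 ± 0.685 CPM in mtch-1(RNAi) and 6.95 ± 0.872 CPM in EV. They rose by 0.88 and 0.77 (edgeR adjusted p = 0.00073 and 0.000904), each with groups that did not overlap. Smaller rises belonged to C01F6.3 with a cytochrome P450 domain (0.41), Y61A9LA.5 with a domain of the membrane-remodelling ESCRT-III proteins (0.64) and C01B10.1 with a helicase domain (0.42), with edgeR adjusted p of 0.0315, 0.0305 and 0.0213. C01F6.3 lost its call without mtch-1(RNAi) replicate 2 or 4 or EV replicate 1, 3 or 4 (adjusted p at most 0.0955 in edgeR). Y61A9LA.5 did so without mtch-1(RNAi) replicate 2, 3 or 4 or EV replicate 3 or 4 (at most 0.0909). Over all 31 rises, 26 had groups that did not overlap. The 5 with an overlap were C33D9.5, B0391.8, C01B10.1, Y102A5C.5 and Y102A5C.6. C33D9.5 was not called without mtch-1(RNAi) replicate 1 or 4 or EV replicate 3 or 4. Y24F12A.3 lay nearest the threshold (edgeR adjusted p = 0.045), and in the authors' deposited table its adjusted p is 0.0543. It was called in 3 of the 13 alternatives in which it was tested.

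**Figure D4:**
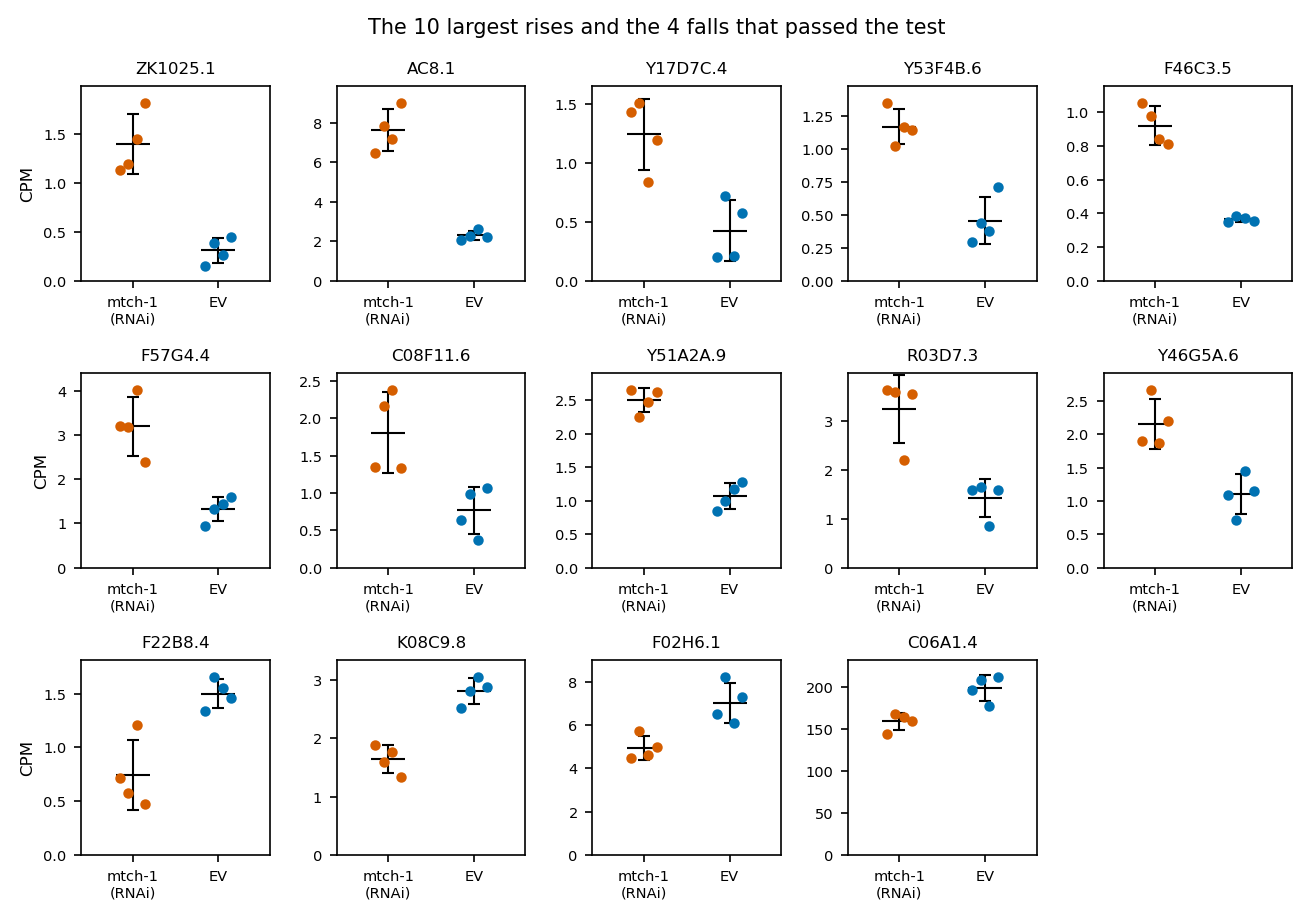
CPM in each of the 4 mtch-1(RNAi) and 4 EV samples for the 10 largest rises and, from F22B8.4 on, the 4 falls, each on its own axis from 0, with the mean and SD as black bars. In all 14 panels every sample of one group lies above every sample of the other.

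All 4 falls had groups that did not overlap. C06A1.4 (chromosome II, 10574842 to 10578193, minus strand) was by far the most abundant of them, with 11 exon blocks and a Piwi domain, the fold with which Argonautes grip and cut target RNA. It had 145, 168, 165 and 159 CPM in mtch-1(RNAi), against 197, 209, 178 and 212 CPM in EV, and fell by 0.32 ± 0.06 on the log2 scale (edgeR adjusted p = 0.00278). K08C9.8 (chromosome I) had 1.89, 1.59, 1.77 and 1.34 CPM in mtch-1(RNAi), against 2.53, 2.81, 3.05 and 2.88 CPM in EV (log2 fold change -0.77 ± 0.19, edgeR adjusted p = 0.0116). These 2 kept their call in every alternative in which they were tested.

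The other 2 falls depended on single libraries. F22B8.4 (chromosome V) had 0.715, 0.576, 1.21 and 0.478 CPM in mtch-1(RNAi), against 1.34, 1.65, 1.55 and 1.46 CPM in EV (log2 fold change -1.0 ± 0.30, edgeR adjusted p = 0.0289). It was not called without mtch-1(RNAi) replicate 1, 2 or 4 or EV replicate 2, 3 or 4, with an adjusted p of at most 0.0843. F02H6.1 (chromosome IV) had 4.46, 5.71, 4.62 and 4.97 CPM in mtch-1(RNAi), against 6.54, 8.22, 6.10 and 7.30 CPM in EV (-0.51 ± 0.15, edgeR adjusted p = 0.0274). It missed the threshold without mtch-1(RNAi) replicate 1, 3 or 4 or EV replicate 2 or 4, with an adjusted p of at most 0.0822. F02H6.1 lies 461 bases from F02H6.2 on the same strand, which fell by 0.23 (edgeR adjusted p = 0.0465).

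Among the 196 genes that did not pass the test, log2 fold changes ran from -1.06 to 1.12, and the largest were of genes under 1 CPM with wide errors. E03A3.10 had 1.26, 0.576, 0.653 and 0.955 CPM in mtch-1(RNAi), against 0.297, 0.165, 0.321 and 0.752 CPM in EV (1.12 ± 0.44, edgeR adjusted p = 0.0886). C40H5.6 had 0.463, 0.620, 0.280 and 0.143 CPM in mtch-1(RNAi), against 1.49, 0.717, 0.214 and 0.752 CPM in EV (-1.06 ± 0.53, edgeR adjusted p = 0.178). In both the groups overlapped. F59B2.11 (1.04, edgeR adjusted p = 0.121), C49F5.9 (-1.03, 0.0686) and Y70G10A.1 (-0.92, 0.0516) complete the 5 largest. With the replicate block, E03A3.10, F59B2.11, C49F5.9 and Y70G10A.1 passed the edgeR test (adjusted p = 0.0297, 0.0424, 0.0311 and 0.0481), and C40H5.6 did not.

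The level of a gene bears on how readily it passes the test, so the calls were split by mean CPM. Under 1 CPM, 4 of 54 pseudogenes rose (7.41%), beside 5.80% of all genes in that band. From 1 to 5 CPM, 14 of 102 rose (13.7%, beside 9.36%), and from 5 to 20 CPM, 6 of 54 (11.1%, beside 12%). At 20 CPM or more, 7 of 21 rose (33.3%, beside 10.7%). Those 7 were ZC513.7, F22D6.14, Y102A5C.5, Y102A5C.6, Y106G6D.5, B0391.10 and C01B10.1, all with rises of 0.36 to 0.44. Of these, ZC513.7, F22D6.14, Y106G6D.5 and B0391.10 share exon bases with another gene. The groups overlapped in Y102A5C.5, Y102A5C.6 and C01B10.1, and the calls of Y102A5C.5 and C01B10.1 were lost without some single libraries. The share that rose in this band without the genes that share exon bases was not computed. Falls were 0 of 54 under 1 CPM, beside 0.694% of all genes there. From 1 to 5 CPM, 2 of 102 fell (1.96%, beside 2.04%), and from 5 to 20 CPM, 1 of 54 (1.85%, beside 6.13%). At 20 CPM or more 1 of 21 fell (4.76%), beside 24.4% of all genes there. Under 1 CPM, where edgeR called no fall, 3 genes had a negative change at an unadjusted p under 0.05, DESeq2 called 0 and limma-voom called 1.

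**Figure D5:**
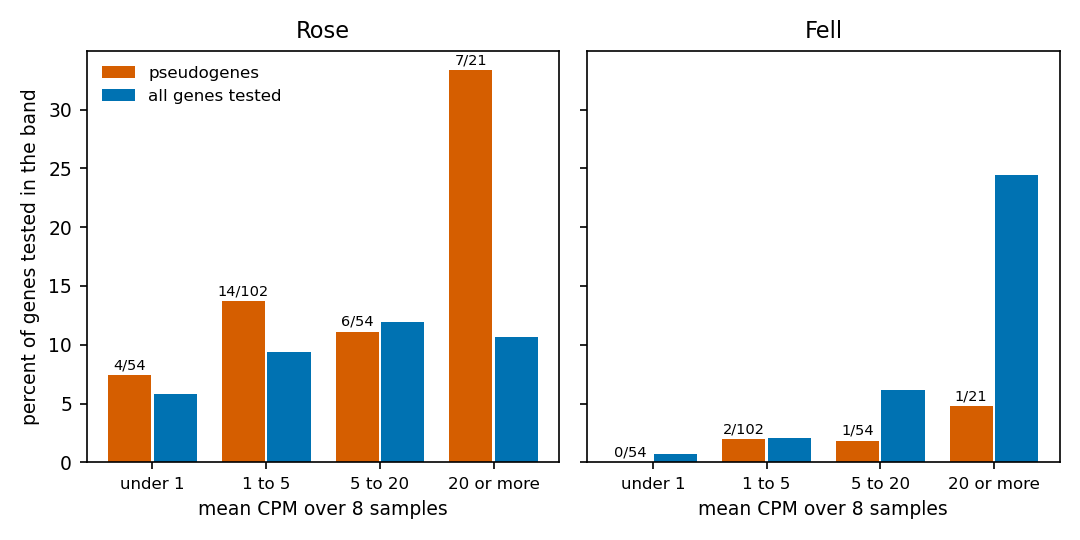
Percent of genes that rose (left) and fell (right) among the pseudogenes and among all genes tested, by band of mean CPM, with the number called over the number tested above each pseudogene bar. The widest gaps are at 20 CPM or more, where 33.3% of the pseudogenes rose beside 10.7% of all genes, and 4.76% fell beside 24.4%. Pseudogenes that share exon bases with another gene are included.

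Within that top band, Y106G6D.5 had 53.2, 54.0, 52.3 and 54.2 CPM in mtch-1(RNAi), against 34.2, 41.1, 39.3 and 42.7 CPM in EV (log2 fold change 0.44 ± 0.07, edgeR adjusted p = 0.000863). It is the 1 rising gene that Ensembl 115 types as protein-coding. It shares 107 exon bases on the same strand with Y106G6D.6, whose log2 fold change was 0.28 (edgeR adjusted p = 0.132). Y102A5C.5 had 31.9, 30.8, 26.3 and 33.1 CPM in mtch-1(RNAi), against 24.8, 26.8, 17.5 and 24.5 CPM in EV, with overlapping groups (0.38 ± 0.12, edgeR adjusted p = 0.0385). That call was lost without any one of mtch-1(RNAi) replicates 1, 2 and 4 and EV replicates 3 and 4, with an adjusted p of at most 0.0943.

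Pseudogenes lie unevenly along the genome. Chromosome V held 29.4% of those tested, against 19.1% of all genes tested, and with each chromosome cut into 3 equal lengths, the outer lengths held 79.4%, against 59.8%. In the outer lengths 22 of 181 rose (12.2%, beside 10.4% of all genes there) and 4 fell (2.21%, beside 11.7%). In the middle lengths 9 of 47 rose (19.1%, beside 9.40%) and 0 fell (beside 15.1%). Shares by position were not compared at matched level. In those middle lengths 3 genes had a negative change at an unadjusted p under 0.05 in edgeR, and neither DESeq2 nor limma-voom called any. By chromosome the share that rose ran from 8.33% on III (2 of 24, beside 10.5% of all genes there) to 16.2% on II and on IV (6 of 37 each, beside 9.18% and 10.4%).

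In 33 clusters, pseudogenes lay within 10000 bases of each other, and these held 78 of the set. The largest cluster, on chromosome V from 16919780 to 16930063, holds Y102A5C.3, Y102A5C.35, Y102A5C.5 and Y102A5C.6, with log2 fold changes of 0.10 to 0.60. Of its 4 genes, Y102A5C.5 and Y102A5C.6 rose. Y46G5A.43 and Y46G5A.6 on chromosome II also both rose, by 0.66 and 0.96, as did B0391.10 and B0391.8 on chromosome V, by 0.43 and 0.66. Of these, Y46G5A.43 was not called without mtch-1(RNAi) replicate 1, 3 or 4 or EV replicate 2 or 3 (adjusted p at most 0.0699 in edgeR). The same held for B0391.8 without mtch-1(RNAi) replicate 1, 2 or 4 or EV replicate 1 or 3 (at most 0.0801). On chromosome II, F07H5.4 rose by 0.48 (edgeR adjusted p = 0.0425) between F07H5.3 and F07H5.5, whose log2 fold changes were 0.02 and 0.04. It was not called by limma-voom, or without mtch-1(RNAi) replicate 1 or 2 or any 1 EV library, with an adjusted p of at most 0.123. B0391.10 overlaps F28F8.7 over 258 exon bases on the opposite strand. F28F8.7 averaged 8.03 ± 0.772 CPM in mtch-1(RNAi) and 11.4 ± 0.591 CPM in EV (SD, n = 4 each) and fell by 0.50 (edgeR adjusted p = 0.00698), opposite to the pseudogene.

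Gene families were read from domains and from neighbouring genes. The deposited table gives a domain name for 45 of the 233, of 26 kinds, in a column headed tf_family. F-box was the most common, in 11 genes, and MATH, a domain paired with BTB in ubiquitin ligase adaptors, was next with 6. None of the 11 or of the 6 passed the test in either direction with edgeR, DESeq2 or limma-voom, and 0 had an unadjusted p under 0.05 in edgeR. Over all genes tested with these domains, 10 of 101 F-box genes rose and 5 fell, and 6 of 48 MATH genes rose and 1 fell. The nearest protein-coding gene on the same strand, near or far, was an F-box or related gene for 20 pseudogenes, and 4 of these rose. For chemoreceptor genes the numbers were 8 and 1, and for MATH and BTB genes 6 and 1. Of the 193 pseudogenes whose nearest such gene was of no listed class, or that had none, 25 rose and 4 fell. The share that rose was 13.4% over all pseudogenes tested and 10% over all genes tested.

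Changes of pseudogenes were compared with those of the nearest protein-coding gene on the same strand. For 22 of the 31 rises that neighbour was tested: it rose in 10 (45.5%) and fell in 2. Over all rising genes with a tested neighbour, it rose in 183 of 1066 (17.2%). ZK1025.1 was 2743 bases from C27C7.1, which rose by 0.64 (edgeR adjusted p = 9.77e-06). ZK1236.8 rose by 0.69 beside pqn-96, a gene named for a glutamine- and asparagine-rich domain, which rose by 0.49 (edgeR adjusted p = 8.02e-05). ZK1236.8 itself was not called without mtch-1(RNAi) replicate 3 or EV replicate 2 or 4. Y49E10.26 rose by 0.83, 170 bases from Y49E10.30, which rose by 1.00 (edgeR adjusted p = 0.00915). Y102A5C.5 and Y102A5C.6 share the neighbour Y102A5C.4 and count as 2 of the 10.

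Opposite changes also occurred. C01B10.1 (chromosome IV, 6613918 to 6618498, minus strand) had 31.4, 25.6, 21.7 and 26.0 CPM in mtch-1(RNAi), against 19.4, 22.8, 17.7 and 18.4 CPM in EV, with overlapping groups, and rose by 0.42 ± 0.12 (edgeR adjusted p = 0.0213). It missed the threshold without mtch-1(RNAi) replicate 1 or EV replicate 3 or 4, with an adjusted p of at most 0.0643. Its neighbour drh-1, a Dicer-related helicase of antiviral RNA interference 565 bases away on the same strand, averaged 68.4 ± 4.99 CPM in mtch-1(RNAi) and 84.8 ± 3.29 CPM in EV (SD, n = 4 each). It fell by 0.31 (edgeR adjusted p = 0.00215). Over the 85 pseudogenes with a tested same-strand neighbour within 2000 bases, Pearson's r between the 2 log2 fold changes was 0.38, and 57 (67.1%) had the same sign. For all 6839 genes with such a neighbour, r was 0.24 and 53.7% had the same sign. These are correlations across genes of the same libraries, and genes are not independent replicates.

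Overlap with other genes touched a minority. On the same strand 14 pseudogenes share exon bases with another gene, of which Y106G6D.5 rose, and on the opposite strand 18 do, of which 3 rose (ZC513.7, F22D6.14 and B0391.10). Without these 32 genes, 27 rose and 4 fell among the 201 that remain, beside 10% and 13% of all genes tested, not at matched level. The 201 include the 3 genes with no Ensembl match, whose overlaps are not known, and may include genes that were not tested.

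The pathways known to act on pseudogene transcripts were read from 2 lists of genes. In the nonsense-mediated decay list, 5 of 17 genes fell and 0 rose with edgeR (0 at an unadjusted p under 0.05 and 0 with DESeq2 or limma-voom), with a median log2 fold change of -0.07, beside 0.01 for all genes. The lowest adjusted p was that of smgl-1, a factor needed for decay, with 130 ± 2.07 CPM in mtch-1(RNAi) and 165 ± 5.40 CPM in EV (SD, n = 4 each, edgeR adjusted p = 0.000107). Of the RNA turnover genes on the list, skih-2, a homologue of the exosome's helicase, fell by 0.39 (edgeR adjusted p = 0.000645) and hbs-1 by 0.20 (0.00754). The count was 3 without mtch-1(RNAi) replicate 1, 2 or 4 or EV replicate 2 or 4. The core factor smg-2, the helicase homologous to UPF1, had a log2 fold change of 0.00 ± 0.06.

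In the small RNA silencing list, 19 of 55 genes fell and 4 rose, with a median of -0.11. The 4 that rose were alg-3, prg-1, ppw-2 and rde-11. The Argonaute alg-3, which acts in sperm development, averaged 3.27 ± 1.02 CPM in mtch-1(RNAi) and 0.134 ± 0.0581 CPM in EV (SD, n = 4 each), a log2 fold change of 4.51 ± 0.36 (edgeR adjusted p = 1.03e-05). The piRNA-binding Piwi protein prg-1 rose by 0.36 (edgeR adjusted p = 0.000726). The RNA-dependent RNA polymerase rrf-3 fell by 0.40 (edgeR adjusted p = 0.000268). The share of the list that fell was 34.5%, and that of the decay list 29.4%, beside 13% of all genes. At 20 CPM or more, where 24.4% of all genes fell, 17 of 50 genes of the small RNA list and 5 of 16 of the decay list did.

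Marker lists of cell types were read in the same way, beside 10% of all genes that rose and 13% that fell (10.7% and 24.4% at 20 CPM or more). In the oocyte list 14 of 20 genes fell (70%) and 0 rose (0 at an unadjusted p under 0.05 with edgeR, and 0 with DESeq2 or limma-voom), led by oma-2, rme-2 and cbd-1. Its summed level was 15228 to 16084 CPM over the mtch-1(RNAi) samples and 17918 to 19101 CPM over the EV samples. In the embryo list 3 of 14 fell (21.4%, die-1, pal-1 and tbx-38), at 274 to 300 CPM in mtch-1(RNAi) and 308 to 348 CPM in EV. Most of that summed level was of pal-1 and die-1. They averaged 183 and 56.2 CPM in mtch-1(RNAi), against 209 and 67.9 CPM in EV. Of 48 sperm genes, 22 were analysed and 5 tested, and the other 26 were not analysed here. Of the 5, spe-41 rose by 1.13 (edgeR adjusted p = 4.58e-05), averaging 17.5 CPM in mtch-1(RNAi) and 8.02 CPM in EV. The rest did not pass the test, with log2 fold changes of 0.29 for spe-15, 0.07 for spe-44, 0.06 for msp-31 and -0.23 for fer-1. The summed sperm level, 54.4 to 55.9 CPM in mtch-1(RNAi) and 40.3 to 43.9 CPM in EV, holds that of spe-41. In the intestine list 2 of 19 rose (10.5%, asah-1 and mtl-2) and 2 fell (10.5%, cpr-1 and fat-2) with edgeR. These shares were near or under those of all genes by edgeR. DESeq2 called 3 rises and 6 falls in this list, and limma-voom called 2 and 2. With edgeR, 6 of its genes had a negative change at an unadjusted p under 0.05. The summed level of the intestine list was 51118 to 62364 CPM in mtch-1(RNAi) and 48436 to 60773 CPM in EV, with overlapping groups. No gene analysed in these lists was at 0 in every sample, and the part of these marker levels in the changes of the pseudogenes was not tested.

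The members nearest the sum of 80 counts were F22E10.4, with 80, just inside, and ZC47.8, T24A6.9 and F18A11.7, each with 79, just outside. Below the sum lay 470 pseudogenes with a median of 7 counts, of which 6 were tested.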

How the data were processed

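Counts in 8 libraries were analysed, 4 mtch-1(RNAi) and 4 EV, with groups and replicate numbers taken from the sample titles. The submitters' processing notes name HISAT2 2.0.5 and featureCounts 1.5.0-p3, as well as DESeq2, and the build WBcel235, without settings. Per the file headers, the authors deposited raw read counts and gene lengths in bases, and their own log2 fold changes and adjusted p-values, which are quoted only where the authors' deposited table is named. No column of per-sample values was left without a sample.

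Counts were tested on the whole table with edgeR 4.0.16 in R 4.3.3 (TMM, filterByExpr, quasi-likelihood F test, Benjamini-Hochberg adjustment over all genes tested). The SE of a log2 fold change is its size over the square root of F. Levels per length are CPM per kilobase of the deposited gene length. Biotypes, spans, overlaps and neighbours came from Ensembl 115, which matched 20596 of 20871 genes. Alternatives were DESeq2 1.42.0, RLE scaling, no filter, at least 5 CPM in at least 4 samples, limma-voom 3.58.1, a replicate block and leaving out each library. On simulated data with 13061 genes tested for this comparison, 55.6%, 77.8% and 96.8% of genes changed by 0.5, 1 and 2 on the log2 scale were recovered, with 7 false calls. The changed genes were drawn at random from all genes tested, with a median of 15.4 CPM, against 2.42 CPM for the pseudogenes. Recovery at the level of the pseudogenes was not measured.

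Libraries of the same group differed by more than counting noise (chi-square per degree of freedom 6.71 to 15.1). Same-numbered libraries deviated together, with correlations of 0.342, 0.205, 0.242 and 0.185, all over the limit of 0.1. Each matched best with its own number, so the numbers were taken to pair the samples in the replicate block and in the shares by replicate number. The main edgeR fit, which gave the calls, did not use this pairing. The labels name no day, plate or litter behind a number.

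The members and gene lists were chosen with earlier results of these data known. Genes named were the 10 largest rises and 10 largest falls among those called (all where fewer), the 10 highest per length, the 5 largest changes not called, those nearest 80 counts, genes with overlapping exons, and up to 3 called genes with the lowest adjusted p per list. Other genes are named to spell out a count, with their values in view. The comparison of each pseudogene with the coding gene most like it in sequence was not run.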

Additional observations from a re-analysis of the deposited data

Results flagged for a closer look

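In 4 groups of 4 samples the lowest sample stood apart from the other 3 by more than Dixon's 95% critical value. R03D7.3, the gene with a reverse transcriptase domain, was lowest at 2.19 CPM in mtch-1(RNAi), where the rest had 3.53 to 3.62 CPM, and at 0.856 CPM in EV, where the rest had 1.58 to 1.65 CPM. Both low samples were replicate 3. F45H11.8, which Ensembl 115 types as protein-coding, was lowest at 32.8 CPM in mtch-1(RNAi), where the rest had 35.1 to 35.2 CPM, and at 26.7 CPM in EV, where the rest had 30.9 to 31.8 CPM. Both low samples were replicate 4. Over the 62 groups examined, chance alone flags about 1 in 20. Without replicate 3 of either group R03D7.3 stayed called.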

How the results depend on the processing

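No call among the 35 changed sign in any of the 14 alternatives, and 20 of them, 18 rises and 2 falls, held wherever they were tested. DESeq2 and RLE scaling each gave 31 rises and 4 falls. With at least 5 CPM in at least 4 samples, 20 rose and 2 fell among the 76 members tested, and the decay list had 3 calls in place of 5; that filter moved all genes by a median of 0.04 in log2 units. With the replicate block there were 42 rises and 10 falls, including all 35 main calls. The share of all genes beside such counts is not given here for any alternative. Leaving out each library gave 21 to 28 rises, 2 to 5 falls, 3 to 5 decay list calls and 16 to 23 small RNA list calls. Fully lower groups numbered 9 to 19 in these runs, and 5 on plain library totals. At the same CPM, leaving out a library can only add such groups, so the 9 to 19 do not test dependence on single libraries. The difference in the share of counts was 0.0424 percentage points, 0.0261 on TMM-scaled library sizes, with overlapping groups, and 0.0216 without the rpl-41 pair (chosen after seeing the data). With single libraries left out, the log2 fold change of F07H5.3 ran from -0.000634, without mtch-1(RNAi) replicate 1, to 0.0551, without EV replicate 1; it was 0.0619 with the stricter filter. The cause of these shifts was not tested. Among the values of named genes under alternatives, 524 kept side and sign, 79 lost the call and 16 gained it. The median SE was 0.22 for the members and 0.12 for all genes; a comparison at matched level was not made. The alternatives for genes matched by sequence were not run.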

Other observations

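Near the left end of chromosome X, 3 pseudogenes lie between bases 173180 and 252767, and they were noticed after their values were seen. T08D2.3 rose by 0.88 and AC8.1 by 1.73. Y73B3B.5, with a DEAD-box helicase domain, had 15.4, 16.9, 16.7 and 17.7 CPM in mtch-1(RNAi), against 12.8, 14.4, 14.2 and 14 CPM in EV. Its groups did not overlap, and its log2 fold change of 0.27 ± 0.09 had an edgeR adjusted p of 0.0502, and of 0.0259 with the replicate block.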
